A study of Mus musculus with 2 samples.

Results

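The family of miR-148 and miR-152 consists of 3 microRNA genes of the mouse, Mir148a, Mir148b and Mir152, which make mature microRNAs with the same seed. Its members were taken by gene identifier from count tables that list 1973 genes, and all 3 had an entry. Of the 1973 genes, 385 were detected, defined as at least 10 counts in both libraries, and all 3 members were among them. The tables describe hindbrain tissue, the source of medulla, pons and cerebellum, from B6NCrl embryos of both sexes at embryonic day 16.5. There was 1 group, labelled healthy and with no treatment named, of 2 libraries made from separate embryo pools that the labels number as biological replicates 1 and 2. The pool of replicate 2 held 37 embryos, and for the other pool no number was found in the labels used here. Libraries covered RNA shorter than 30 nt, and they held 5097205 and 4460836 sense-strand counts on microRNA genes.

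A microRNA is cut from a hairpin transcript and guides the silencing complex to messenger RNAs that pair with its seed, bases 2 to 8. Members of a family share the seed and can therefore recognise overlapping sets of targets. It is best known for repressing Dnmt1, the enzyme that maintains DNA methylation after replication. The family is widely expressed, and miR-148a is abundant in liver.

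The mature 3p sequences show what the family shares and where the members part. They are given 5′ to 3′ from RefSeq (GRCm38.p6), with the seed in capitals.
miR-148a-3p: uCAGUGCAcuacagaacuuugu
miR-148b-3p: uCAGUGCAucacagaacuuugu
miR-152-3p: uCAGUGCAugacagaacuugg
The first lies at chr6:51269829-51269850 on the minus strand. The second lies at chr15:103285185-103285206 and the third at chr11:96850439-96850459, both on the plus strand. Bases 1 to 8 are the same in all 3. Counted from 1 at the 5′ end, miR-148a-3p and miR-148b-3p differ at 2 of 22 positions (C9U and U10C). miR-148a-3p and miR-152-3p differ at 3 of the 21 positions they share (C9U, U10G and U20G), and miR-148b-3p and miR-152-3p differ at 2 (C10G and U20G). All differences fell outside the seed.

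A search of 1738 mature mouse sequences in the same table found the heptamer CAGUGCA at bases 2 to 8 in 3, or 0.173%, and these were the family itself. No other entry of the table therefore shared the seed. The same letters stood at bases 1 to 7 of 7 mature sequences, or 0.403%, among them members of the miR-130 and miR-301 family, whose seed is shifted by 1 base. The most abundant of these is shown with the heptamer in capitals, and lies at chr2:84741116-84741137 on the minus strand.
miR-130a-3p: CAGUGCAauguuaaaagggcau

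The hairpins are shown with the 3p mature sequence in capitals, because the deposited counts belong to the whole hairpin and do not separate its arms.
Mir148a: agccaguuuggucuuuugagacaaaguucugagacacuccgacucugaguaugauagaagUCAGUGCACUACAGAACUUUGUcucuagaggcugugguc
Mir148b: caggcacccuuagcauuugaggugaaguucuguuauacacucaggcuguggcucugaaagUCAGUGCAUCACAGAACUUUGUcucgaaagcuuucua
Mir152: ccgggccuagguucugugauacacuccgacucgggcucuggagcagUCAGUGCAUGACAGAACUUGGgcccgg
The hairpins measure 99, 97 and 73 bases. In global alignments Mir148a and Mir148b were 68.9% identical, Mir148a and Mir152 58.4%, and Mir148b and Mir152 59.6%. The mature arms were more alike than the whole hairpins, with 81.8% to 90.9% identity for the 3p arms and 75.0% to 79.2% for the 5p arms. The 5p arms differed in their seed, which reads AAGUUCU in miR-148a-5p and miR-148b-5p and AGGUUCU in miR-152-5p. Reads from the 5p arm, if present, would carry another seed than the family's and would be counted in the same value.

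Each 3p sequence was found whole in 1 of 1005 RefSeq hairpins, its own. The first 9 bases of miR-148a-3p, and the first 10 of miR-148b-3p and miR-152-3p, already set each apart from every other hairpin searched. MicroRNAs with several copies of one mature sequence lose reads to the multimapping class, which held 34.5% and 35.1% of all reads in replicates 1 and 2. By this search no family member has such a copy, although sequence outside the listed hairpins was not searched.

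The 3 genes lie on different chromosomes (mm10, GENCODE M21). Mir148b (ENSMUSG00000065560.1) spans 103285125 to 103285221 on the plus strand of chromosome 15, in intron 1 of Copz1, an intron of 16159 bp. Mir152 (ENSMUSG00000065515.1) spans 96850393 to 96850465 on the plus strand of chromosome 11, in intron 1 of Copz2, which is 676 bp long. Both hosts are read from the same strand as their hairpin, and they encode the paralogous zeta subunits of coatomer, the coat of vesicles that return from the Golgi to the endoplasmic reticulum. Mir148a (ENSMUSG00000065505.1) spans 51269812 to 51269910 on the minus strand of chromosome 6 and lies between genes. Its nearest annotated gene is the noncoding Gm32479, 13622 bp away on the same strand, and its nearest protein-coding gene, Nfe2l3, is 162760 bp away. No member belongs to a tight cluster, since the nearest other listed microRNA gene was 351722 bp from Mir148a, 65234 bp from Mir148b and 213303 bp from Mir152, each with at most 3 counts per library.

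Mir148a and Mir148b were present at similar moderate levels in the hindbrain, and Mir152 was lower by 4.11-fold to 4.52-fold. Mir148a had 1017 counts in replicate 1 and 896 in replicate 2. In counts per 1000000 sense counts (CPM, with no division by length, since each read stands for a short RNA of similar size) this was 199.5 and 200.9, a mean of 200.2 ± 0.946 CPM (SD, n = 2). Its exact binomial 95% intervals, 187 to 212 CPM and 188 to 214 CPM, almost coincided. These levels depend on the total they are divided by, and with multimapping reads added to it Mir148a stood at 114 CPM.

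Mir148b had 996 and 756 counts, or 195 and 169 CPM, a mean of 182 ± 18.3 CPM (SD, n = 2). Its intervals of 183 to 208 CPM and 158 to 182 CPM did not overlap, so replicate 1 was higher by more than counting error on plain totals. Mir152 had 242 and 184 counts, or 47.5 and 41.2 CPM, a mean of 44.4 ± 4.40 CPM (SD, n = 2), with intervals of 41.7 to 53.9 CPM and 35.5 to 47.7 CPM that overlapped. The intervals describe counting error alone, as the reads carry no molecular identifiers and several can come from 1 molecule. In bulk tissue, few cells with much of a microRNA and many cells with little cannot be told apart.

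**Figure D1:**
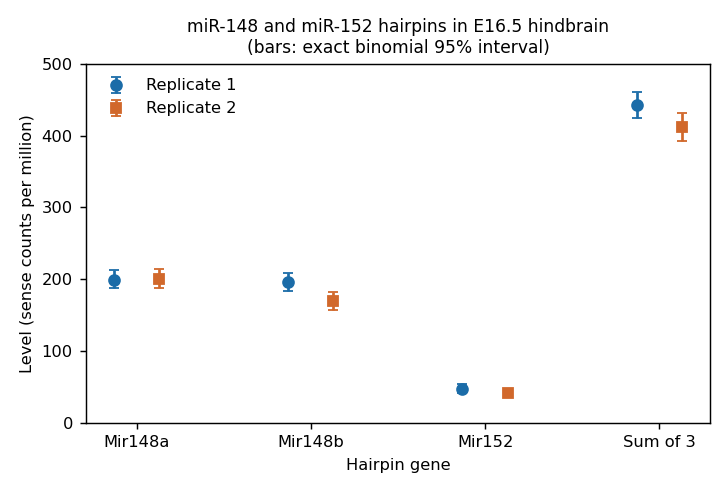
Level of each family member and of their sum in CPM, for replicate 1 (circles) and replicate 2 (squares), with exact binomial 95% intervals as bars. Mir148a stands at 199.5 and 200.9 CPM, Mir148b at 195 and 169 CPM and Mir152 at 47.5 and 41.2 CPM.

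Together the 3 hairpins held 2255 and 1836 counts, or 442 and 412 CPM, a mean of 427 ± 21.8 CPM (SD, n = 2). This was 0.0427% of all sense counts, and with multimapping reads in the total the sum was 243 CPM. Mir148a supplied 45.1% and 48.8% of the family's counts, a mean of 47.0% ± 2.62 (SD, n = 2). Mir148b supplied 44.2% and 41.2%, a mean of 42.7% ± 2.12, and Mir152 10.7% and 10.02%, a mean of 10.4% ± 0.502. For Mir152 the exact binomial 95% intervals, 9.48% to 12.1% and 8.69% to 11.5%, overlapped. Most of the family's counts thus came from Mir148a and Mir148b in both pools.

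Among the 385 detected genes, ordered by mean CPM, Mir148a ranked 169, Mir148b 173 and Mir152 253. Mir148a lay above 56.1% of detected genes, Mir148b above 55.1% and Mir152 above 34.3%. The median detected gene reached 150.2 CPM, so Mir148a and Mir148b were close to the middle of the profile and Mir152 was in its lower part. In single libraries Mir148a ranked 173 and 165, Mir148b 174 and 178, and Mir152 255 and 251. Mir148a and Mir148b were next to each other in replicate 1.

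**Figure D2:**
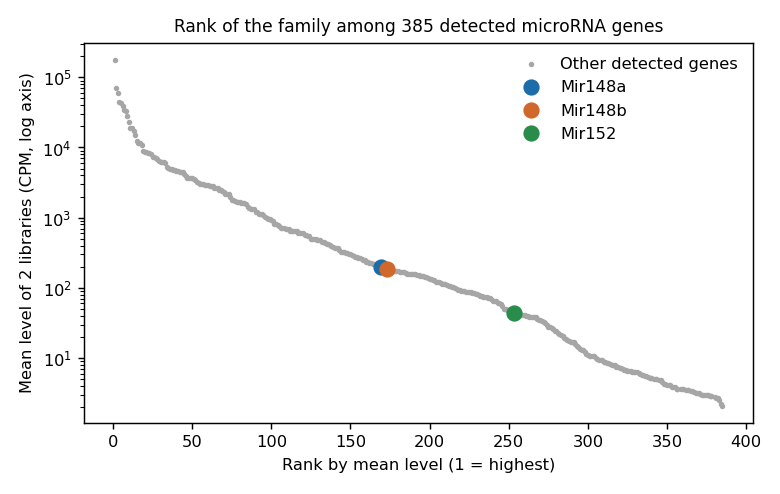
Mean level of each of 385 detected microRNA genes in CPM (log axis) against its rank, with the 3 family members marked. Mir148a and Mir148b lie near the middle at ranks 169 and 173, and Mir152 lies lower, at rank 253.

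Ratios between members do not depend on the library total, and they separated Mir152 from the other two genes. A ratio was called different when both libraries gave the same direction and the mean of their log2 ratios lay beyond 2 SD. Mir148a over Mir152 had a log2 ratio of 2.07 in replicate 1 and 2.28 in replicate 2, a mean of 2.18 ± 0.15 (SD, n = 2), past that limit. Mir148b over Mir152, the pair in the coatomer genes, had 2.04 in both libraries, a mean of 2.04 ± 0.0017 (SD, n = 2), also past the limit. This SD is far below the counting error, and the exact binomial 95% intervals of 1.84 to 2.25 and 1.80 to 2.28 describe the precision better.

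Mir148a over Mir148b had log2 ratios of 0.03 and 0.25, a mean of 0.14 ± 0.15 (SD, n = 2), within the limit. The interval held 0 in replicate 1 (-0.10 to 0.16) and not in replicate 2 (0.10 to 0.39), so an excess of Mir148a was seen beyond counting error in 1 library. The order of these 2 genes is therefore not settled by these data. An exact sign-flip permutation test over 2 libraries cannot go below p = 0.5, and no p-value is given for the ratios. A bias in cloning or counting that both libraries share would not show in any of these ratios.

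Other related mouse microRNAs also lie in paralogous or matched host genes, and 6 such pairs were set beside Mir148b and Mir152 as a description. For 4 of the 6, all counts reached 10 and a ratio could be given. Mir218-1 and Mir218-2, in the axon guidance genes Slit2 and Slit3, differed by a mean log2 ratio of -1.98 ± 0.18 (SD, n = 2). Mir128-1 over Mir128-2, in R3hdm1 and Arpp21, had 0.94 ± 0.07. The 4.11-fold gap between the coatomer microRNAs was of the same size as the first of these. Mir26b over Mir26a-2 (Ctdsp1 and Ctdsp2) and Mir204 over Mir211 (Trpm3 and Trpm1) were much wider, at 9.40 ± 0.25 and 9.26 ± 0.43. Mir26a-2 and both hairpins of the miR-218 and miR-128 pairs share a mature sequence with another locus, so their counts are uncertain, whereas Mir148b and Mir152 share none. Mir107 over Mir103-1 and Mir208b over Mir208a had too few counts for a ratio, with 13 and 6 for Mir103-1 and 4 and 9 for Mir208a.

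**Figure D3:**
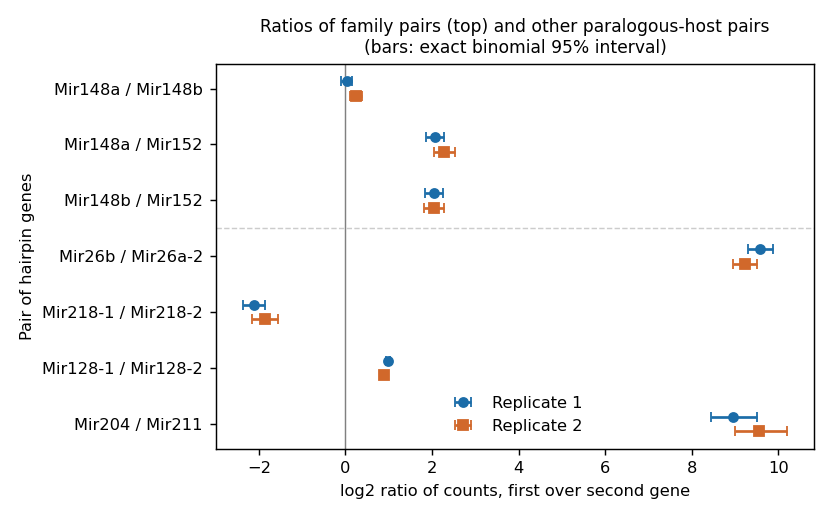
log2 ratio of counts of the first over the second gene of each pair, in replicate 1 (circles) and replicate 2 (squares), with exact binomial 95% intervals as bars. The 3 family pairs are at the top, with both Mir152 pairs between 2.04 and 2.28 and Mir148a over Mir148b at 0.03 and 0.25, and 4 other pairs in paralogous or matched hosts are below.

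The members differed little between the 2 pools. Each gene was compared between the libraries by an exact two-sided binomial test against totals scaled by TMM (trimmed mean of M-values), over the 401 genes whose 2 counts summed to 20 or more, and p-values were adjusted over all of them by the Benjamini-Hochberg method. The test measures counting noise and compares these libraries, not conditions, and the spread it sees may be technical as well as biological. Of the 401 genes, 46.4% passed at 0.05, and 0 of the 3 members did. One member, Mir148b, had an unadjusted p below 0.05. The exact test of edgeR, with the biological coefficient of variation set to 0.1, which allows for spread beyond counting noise, passed 1.75% of genes and 0 of the 3 members, none with an unadjusted p below 0.05.

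Mir148a had a log2 ratio of replicate 2 over replicate 1 of 0.07 (exact binomial 95% interval -0.06 to 0.21, adjusted p = 0.393). Mir148b had -0.14 (interval -0.28 to -0.0027, exact binomial p = 0.0439, adjusted p = 0.089), and Mir152 had -0.14 (interval -0.42 to 0.14, adjusted p = 0.479). Mir148b did pass with plain library totals, at -0.21 and an adjusted p of 0.0078, where 48.1% of genes passed. Its adjusted p ranged from 0.0078 to 0.975 over the settings tried. Over the detected genes the median ratio was 0.01 and the median absolute ratio 0.18, and each of the 3 members lay below that median absolute value. Of the 20 detected genes nearest in level to Mir152, 8 passed, with ratios from -0.67 to 0.71. Of the 20 nearest to Mir148b, 10 passed, with ratios from -3.87 to 0.57. Of the 20 nearest to Mir148a, 12 passed, with ratios from -3.87 to 0.18. The lowest value in both sets is that of the muscle gene Mir206.

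**Figure D4:**
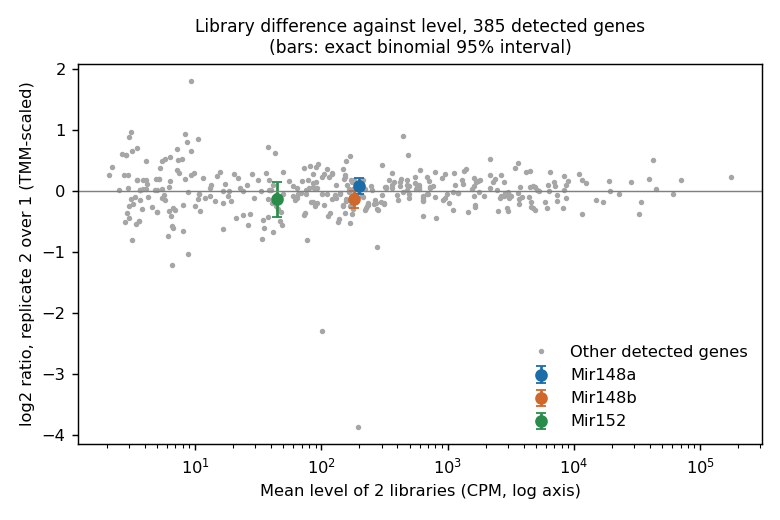
log2 ratio of replicate 2 over replicate 1 on TMM-scaled totals against mean level in CPM (log axis) for 385 detected genes, with exact binomial 95% intervals for the 3 family members. The members lie at 0.07, -0.14 and -0.14, close to the zero line, while 1 gene near them in level lies at -3.87.

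By Euclidean distance in log2 CPM over the 2 libraries, the detected genes most like Mir148a were Mir346, at 193 ± 5.15 CPM and a distance of 0.08, and Mir363 of the miR-106a-363 cluster, at 209 ± 14.7 CPM and 0.14. Those most like Mir148b were Mir16-2, at 183 ± 11.2 CPM and 0.06, and Mir221, at 179 ± 3.31 CPM and 0.12. Those most like Mir152 were Mir5099, at 43.5 ± 2.86 CPM, and Mir702, at 43.7 ± 5.95 CPM, with distances of 0.06 and 0.07 (SD, n = 2 throughout). The gene just above Mir148a by mean level was Mir363, and the gene just below was Mir206. Mir16-2 and Mir488 framed Mir148b, and Mir6944 and Mir702 framed Mir152. With 2 libraries this likeness is one of level and of the difference between pools only. Whether the genes most like the members share a mature sequence with another locus was not checked. Reads lost to the multimapping class could therefore lower their counts.

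The family was also placed among 12 microRNA genes known for repressing DNA methyltransferases, a list that includes its own 3 members. All 12 were counted and 11 were detected, with 16299 and 15033 CPM in sum. Most of this came from Mir143, the smooth-muscle microRNA, at 7155 ± 19.6 CPM, and Mir342, in an intron of Evl, at 4943 ± 910 CPM. Mir101b reached 1632 ± 10.9 CPM, Mir101a 596 ± 1.62 CPM and Mir185 574 ± 1.10 CPM. Mir148a and Mir148b were thus below these 5 genes.

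The miR-29 family, known for repressing Dnmt3a and Dnmt3b, was close to the family in level. Mir29a reached 175 ± 7.27 CPM and Mir29c 159 ± 2.56 CPM, between Mir148b and Mir152, while Mir29b-1 and Mir29b-2, which share their mature sequence and are uncertain, stayed at 2.28 and 3.01 CPM. The median level over the 12 genes, with the undetected Mir29b-1 included, was 191 CPM. It fell between Mir148b and Mir148a, so it restates the family's own levels and gives no outside comparison. Of the 12, 1 gene (Mir342) was higher in replicate 1 and 2 genes (Mir101b and Mir143) in replicate 2 by the exact binomial test, where 24.4% and 21.9% of all tested genes passed in these directions. Mir101b and Mir143 had log2 ratios of 0.08 and 0.07, close to the 0.07 of Mir148a, which had fewer counts and did not pass. The median log2 ratio between the libraries was 0.06 for the list and 0.01 for all detected genes.

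The hairpins of the miR-130 and miR-301 family, which includes Mir130a, Mir130b and Mir301 with the shifted heptamer, exceeded the family of miR-148 and miR-152 by far. Mir130a reached 22848 ± 1291 CPM, Mir130b 3662 ± 354 CPM, Mir301 1650 ± 245 CPM and Mir301b 88.8 ± 13.4 CPM (SD, n = 2). Their sum was 66.1-fold that of the family, with log2 ratios of 6.06 and 6.03 and a mean of 6.05 ± 0.02 (SD, n = 2). Of the counts of both families together, the 3 members held 1.47% and 1.51%. All 4 hairpins of the other family were higher in replicate 1 by the exact binomial test, beside 24.4% of all tested genes in that direction. Their log2 ratios were -0.05 for Mir130a, -0.13 for Mir130b and -0.24 for Mir301 and Mir301b. Mir130a thus passed at a smaller shift than that of Mir148b (-0.14), which had far fewer counts and did not pass. Of the other mature sequences with the heptamer at bases 1 to 7, Mir6341, Mir6389 and Mir130c had 0 counts in both libraries, which allows up to 0.589 and 0.673 CPM.

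Markers of cell types that a dissected hindbrain could hold give the scale of the family's level. The neuronal list, with 7 of 10 counted genes detected, held 13557 and 12175 CPM, led by Mir137, Mir128-1, Mir128-2 and Mir9-3. The lowest of its members were the Mir124a hairpins and Mir9-2, with Mir124a-1, Mir124a-2 and Mir124a-3 at 3.62, 1.42 and 0.322 CPM and Mir9-2 at 0.953 CPM. Of the 7 counted members with a mature sequence in the RefSeq table, 6 share it with another locus, Mir9-3 among them, so these levels and the sum are uncertain. The Mir124a hairpins had no mature sequence in that table, so sharing between them was not checked. Reads lost to the multimapping class could lower their counts, which therefore do not show that miR-124 was scarce. The choroid plexus pair held 3112 and 4075 CPM and the oligodendrocyte-lineage list 2414 and 2022 CPM. In the latter list, 2 of 3 genes share a mature sequence with another locus, so its sum is uncertain too. Mir137, at 8178 ± 1384 CPM (SD, n = 2), was the most abundant neuronal marker and shares its mature sequence with no other entry. The family's 442 and 412 CPM were close to the sum of 5 counted leukocyte genes, 473 and 433 CPM, and above the 3 erythroid genes at 216 and 206 CPM. Of 6 leukocyte genes listed, Mir142 had no counted entry and Mir142b had 0 counts, so nothing from these genes is in that sum. The hepatocyte list held 214 and 194 CPM, and its defining gene Mir122, at 41.5 ± 0.649 CPM, stood near Mir152. Of the 3 hepatocyte genes with a mature sequence in the RefSeq table, 2 share it with another locus, so that sum is uncertain.

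The endothelial and smooth muscle list held 34724 and 36467 CPM, with Mir126a and Mir143 leading. Of its 4 counted genes, only 1 (Mir126a) had a mature sequence in the RefSeq table, so sharing was not checked for the others. Mir143 is also counted in the DNA methyltransferase list. The skeletal muscle list held 375 and 24.9 CPM, with 3 of its 5 counted genes at 0 and Mir206 as its main gene. The fibroblast and mesenchymal list held 3834 and 3290 CPM. Most of this came from Mir21a, at 3356 and 3015 CPM, with a log2 ratio of replicate 2 over replicate 1 of -0.09 on TMM-scaled totals. Mir214, at 369 and 186 CPM, had the ratio -0.93, and Mir199b had -0.20. Of the 5 genes of this list, 3 share a mature sequence with another locus, so its sum is uncertain. By summed CPM on plain totals, the choroid plexus list and the endothelial and smooth muscle list were higher in replicate 2, and the other lists were lower. Plain totals gave lower ratios than TMM-scaled totals, -0.21 against -0.14 for Mir148b. The direction of a small difference, such as the erythroid 216 and 206 CPM, can therefore depend on the scaling. Wide differences, such as the 375 and 24.9 CPM of skeletal muscle, exceed that shift. The DNA methyltransferase list, lower by sum, had a median log2 ratio of 0.06 on TMM-scaled totals. That median weighs all genes alike and the sum does not, so the 2 values do not show an effect of scaling. The part of any of these cells in the family's values was not tested.

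**Figure D5:**
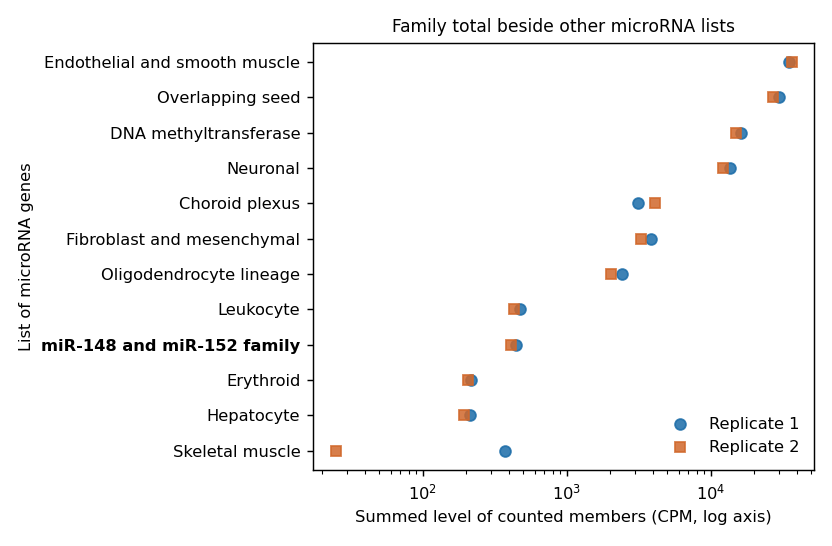
Summed level in CPM (log axis) of the family and of 11 other lists of microRNA genes, in replicate 1 (circles) and replicate 2 (squares). The family, at 442 and 412 CPM, lies between the leukocyte and erythroid lists and below the list of overlapping seed by 66.1-fold.

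Reads on the strand opposite the 3 hairpins were all but absent, with 1 read at Mir148a in replicate 2 and 0 at every other member and library, beside 2255 and 1836 sense counts for the family.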

How the data were processed

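MicroRNA sequencing of 2 hindbrain libraries gave the data. The authors deposited unnormalised read counts for each gene, made on mm10 with GENCODE M4 per the text that accompanies the samples. Not given in the sources used here: the aligner and the counting program. The second of the 3 count columns (sense strand) was used, and the 4 summary lines that name no gene stayed out of totals. Multimapping reads were 34.5% and 35.1% and unmapped reads 15.5% and 15.2% of all 11018624 and 9729498 reads. Identifiers were matched without version to GENCODE M21, 1894 of 1973. CPM is counts per 1000000 sense counts. Intervals are exact (Clopper-Pearson), and a count of 0 allows 3 counts.

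Members and lists were chosen with earlier results of these data known. The text names the members, the 2 detected genes nearest each in log2 CPM, its neighbours in rank and at most 4 genes per cell type list. The neuronal list is an exception, as its lowest members are named as well. Other named genes were chosen after their values were seen. RefSeq sequences matched all 3 members. The library test was tested on simulated data. Alternatives were unstranded counts, TMM and DESeq2 scaling, other totals, minimums and a pseudocount, single replicates, and the exact test of edgeR. Software was R 4.3.3 with DESeq2 1.42.0 and edgeR 4.0.16, and Python 3.11.15 with scipy 1.17.1.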

Additional observations from a re-analysis of the deposited data

How the results depend on the processing

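Levels moved with the library total and not with the scaling between libraries. Without the most abundant gene in the total, Mir148a stood at 243 CPM, Mir148b at 221 CPM, Mir152 at 53.8 CPM and the family at 518 CPM. With multimapping reads added to the total they stood at 114, 104, 25.3 and 243 CPM. With unstranded counts Mir148a was at 195 CPM, more than its small SD below the reported level. TMM and DESeq2 scaling moved each level and the family total by less than 1 SD. Single libraries gave 199.5 to 200.9 CPM for Mir148a, 169 to 195 CPM for Mir148b, 41.2 to 47.5 CPM for Mir152 and 412 to 442 CPM for the family. Both Mir152 ratios stayed past the limit of 2 SD, and Mir148a over Mir148b within it, with unstranded counts and with a pseudocount of 1 CPM. In the library comparison, Mir148b passed with plain totals (log2 ratio -0.21) and missed the threshold under the other 5 settings. Genes passing numbered 186 of 401 (46.4%), 179 of 737 (24.3%) with no minimum summed count, 181 of 304 (59.5%) with a minimum of 100, and 7 of 401 by edgeR's exact test. No paired analysis was possible because there is 1 group. Depth limits Mir152 most, at 242 and 184 counts.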
